A study of Mus musculus with 9 samples.

Results

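Control tail melanocytes made up 3 of the 9 RNA-sequencing libraries of this mouse series, and the values below come from those 3 libraries, named libraries 1, 2 and 3 here. The labels describe them as melanocytes purified by fluorescence-activated cell sorting from the tail epidermis of Spry1flox/flox mice, in which both copies of Spry1 carry the sites that Cre recombinase cuts. No Cre is given for these mice. The other 6 libraries came from Spry1flox/flox k14-Cre-ERT2 mice and were not compared here, so all 9 libraries share the floxed Spry1. Sort markers, age, sex and treatment are not given in the labels, nor do they say that the 3 libraries came from separate animals, so the standard deviations (SD, n = 3) may be technical. Of the 16299 genes of the deposited table, all were ranked. Levels between genes were compared per length for the 12855 protein-coding genes with an annotated length.

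Melanocytes are pigment cells that descend from the neural crest. They make melanin inside melanosomes, organelles related to lysosomes, and hand them to surrounding keratinocytes. Mouse tail skin keeps pigment cells in the epidermis between hairs, whereas most pigment cells of the furred back sit in hair follicles. The receptor MC1R and the receptor tyrosine kinase KIT feed into the transcription factor MITF, which works with SOX10 and PAX3 on the pigment genes.

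Each library held 70.0 to 72.4 M (mega) recovered counts, of which 94.9% to 95.4% fell on protein-coding genes. Recovered counts are whole counts worked back from the deposited log2 values, and TPM (transcripts per 1000000) are these counts divided by exon length and scaled to that total over the protein-coding genes of each library. A TPM is therefore a share of one library's messenger RNA. In bulk RNA of this kind, fewer cells of a type and less RNA per cell cannot be told apart. No pair of libraries agreed within counting noise, with a chi-square per degree of freedom of 226 to 372, which weighs counting error only and does not show that they came from separate animals. Spearman correlations of TPM across genes were 0.934 for libraries 1 and 2, 0.928 for 1 and 3, and 0.916 for 2 and 3. All 10 melanocyte markers looked for were present in every library, as detailed below.

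Promoters of pigment genes are shown first, because several pigment genes were among the most abundant genes. Of those printed, Dct ranked number 5 per length, Tyrp1 number 7, Slc24a5 number 17 and Tyr number 108. MITF is known to bind the E-box hexamer CATGTG, within the pigment-gene element known as the M-box. Of 6 pigment genes looked for, 4 had an entry among the RefSeq promoters of build GRCm38.p6, and Pmel and Mlana are named only. Each run is the 250 bases before the RefSeq start, 5′ to 3′ on the gene's strand, and capitals mark that hexamer, read on the plus strand or, as CACATG, on the minus strand. The stretches are chr14:118052247-118052496 on the minus strand for Dct, chr4:80833963-80834212 on the plus strand for Tyrp1, chr7:87493513-87493762 on the minus strand for Tyr and chr2:125067877-125068126 on the plus strand for Slc24a5.
Dct: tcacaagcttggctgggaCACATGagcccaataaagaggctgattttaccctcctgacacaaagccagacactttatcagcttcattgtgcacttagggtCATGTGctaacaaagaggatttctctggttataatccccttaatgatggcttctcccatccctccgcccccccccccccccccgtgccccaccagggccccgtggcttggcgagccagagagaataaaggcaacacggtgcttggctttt
Tyrp1: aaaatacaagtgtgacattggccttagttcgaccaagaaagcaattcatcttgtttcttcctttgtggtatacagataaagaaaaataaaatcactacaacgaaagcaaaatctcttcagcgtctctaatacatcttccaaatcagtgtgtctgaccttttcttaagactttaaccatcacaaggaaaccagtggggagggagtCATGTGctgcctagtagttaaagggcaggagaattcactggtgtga
Tyr: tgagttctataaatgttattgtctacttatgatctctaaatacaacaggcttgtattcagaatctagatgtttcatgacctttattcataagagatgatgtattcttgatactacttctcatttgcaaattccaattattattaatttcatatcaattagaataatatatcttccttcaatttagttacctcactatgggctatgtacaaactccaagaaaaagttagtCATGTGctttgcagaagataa
Slc24a5: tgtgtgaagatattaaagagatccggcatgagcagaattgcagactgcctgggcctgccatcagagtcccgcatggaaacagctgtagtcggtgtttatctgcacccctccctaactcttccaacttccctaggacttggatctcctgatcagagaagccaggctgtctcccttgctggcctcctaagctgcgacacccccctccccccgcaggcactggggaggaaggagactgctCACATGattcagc
Windows of 300 bases, 250 before and 50 after the start, were searched on both strands for the hexamer, for the longer strings TCATGTG and then TCATGTGCT, and for the canonical E-box CACGTG. Matches to the longer strings contain the hexamer and so overlap it. The hexamer lay in all 4 windows, placed here by the RefSeq start. It was 150 bases before the start in Dct, 46 in Tyrp1 and 21 in Tyr. On the minus strand it was 232 bases before the start in Dct and 13 in Slc24a5. The Tyrp1 gene coordinates given below come from another annotation, GENCODE, and begin inside the printed run. By them the Tyrp1 hexamer lies within the gene. Among all 32851 promoters in the table the hexamer was found in 14.2%, and among the 129 promoters of genes at or over 1000 TPM in 14.0%. TCATGTG was also in all 4, against 3.77% of all promoters. Of those 129, 6 promoters (4.65%) held it, and 4 of the 6 are the ones shown here. TCATGTGCT was in Dct, Tyrp1 and Tyr, against 0.408% of all promoters. Among the 129 only these same 3 promoters (2.33%) held it, so the 129 give no separate background for it. The 4 genes were picked as pigment genes, and the M-box is known from pigment genes. Such matches were therefore likely beforehand and are not independent evidence. None of the 4 windows held CACGTG, which occurred in 7.15% of all promoters and 10.9% of the 129. A match describes the letters in the window and was not tested as a binding site.

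By mean deposited value, which is on a log2 scale and not corrected for gene length, the 10 highest genes were Pmel, Dct, Tyrp1, Ftl1, Gpnmb, Actb, Fos, Malat1, Lgals3 and mt.Co1. Their means ran from 20.20 ± 0.52 for Pmel and 20.14 ± 0.10 for Dct to 18.06 ± 0.23 for mt.Co1 (SD, n = 3). The first 3 code for proteins of the melanosome. Per length, Pmel remained first at 22570 ± 6627 TPM (SD, n = 3), with 25440 in library 1, 27270 in library 2 and 14990 in library 3. PMEL is the protein that forms the fibrils on which melanin is laid down, and its gene lies at chr10:128704195-128720238 (GRCm38, plus strand). Library 3 stood below the other two for this gene.

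Ftl1, the ferritin light chain that stores iron, came next at 19440, 19530 and 25770 TPM. Dct, which encodes dopachrome tautomerase and lies at chr14:118012790-118052244 on the minus strand, was number 5 at 13180 ± 784 TPM (SD, n = 3) and was among the steadiest, at 14040, 12980 and 12510. Mlana, a melanosome membrane protein encoded at chr19:29697824-29708634, followed at 14090, 13090 and 11940 TPM. Tyrp1, the tyrosinase-related enzyme encoded at chr4:80834123-80851719, had 10530, 7424 and 8963 TPM. So 4 of the 7 most abundant protein-coding genes belonged to the melanosome.

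The 30 most abundant genes also held 7 mitochondrially encoded genes, the galectins Lgals3 and Lgals1, the actin Actb, the glutathione transferase Gstp1, the polyubiquitin Ubb, the calmodulin Calm2, the calcium-binding S100a1, the metallothionein Mt1 and the membrane protein Emp3. Further members were B2m, the light chain of class I molecules, the lysosomal protease Ctsd, Cd63, Gpnmb and Slc24a5 of the melanosome, the immediate early gene Fos, and 3 secreted products, Ptgds, Npy and Prl2c5. None encoded a ribosomal protein. The order within this group is loose: the ranges over the 3 libraries overlapped in 28 of the 29 neighbouring pairs, and only 6 pairs kept their order in every library. Mlana and Tyrp1 were the pair without overlap.

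Ranking by the deposited value and ranking per length gave different lists. With both taken over protein-coding genes only, they shared 6 of the top 10 genes, 20 of the top 30, 59 of the top 100 and 303 of the top 500. Tyr, the rate-limiting enzyme of melanin synthesis, was number 13 by deposited value among all genes of the table. Per length it was number 108 among protein-coding genes, since its annotated exons cover 7108 bases. With the longest transcript as the length, Ftl1 was first, Pmel second and Dct number 3, and the top 30 shared 27 genes with the main ranking.

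Expression was concentrated in few genes. The 10 most abundant took 13.58%, 13.18% and 14.40% of all TPM in libraries 1, 2 and 3, and the 100 most abundant 35.8% ± 0.467 (SD, n = 3). At least 1 TPM was reached in all 3 libraries by 9725 of the 12855 protein-coding genes (75.7%), at least 10 TPM by 5522 and at least 1000 TPM by 103. The median protein-coding gene had 10.3 TPM, which is the level to set beside each gene group below. 84 protein-coding genes of the table (0.653%) had no count in any of the 3 libraries. Every gene of the table has at least 10 counts in 3 or more of the 9 libraries of the series. These 84, and the genes named below at 0 counts, are therefore in the table only through libraries outside the controls. Genes without counts in all 9 are not part of this share.

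**Figure D1:**
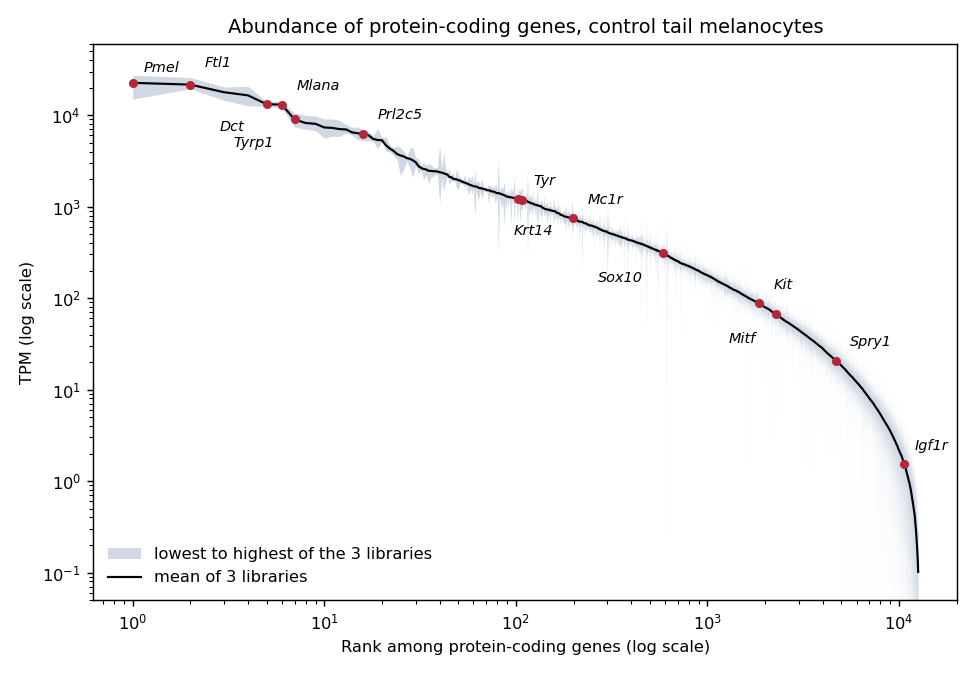
Mean TPM of each protein-coding gene with a mean of at least 0.1 TPM (vertical axis, log scale) against its rank by that mean (horizontal axis, log scale) over the 3 control tail libraries, with a band from the lowest to the highest library and red points on 14 named genes. Pmel heads the curve at 22570 TPM, Tyr lies at rank 108, Sox10 at 587 and Mitf at 2271, and the band widens at low levels.

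The melanin pathway was expressed at a very high level in each library. The 3 melanin enzymes summed to 25670, 21330 and 23010 TPM, or 2.33% of the messenger total, with Dct as 56.5% of the sum. Tyr itself had 1096, 921 and 1542 TPM and was highest in library 3. Melanin synthesis requires tyrosinase first, so the 3 enzymes act in sequence on the same substrate line, with Dct and Tyrp1 at the later steps.

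All 16 measured genes of the melanosome matrix and membrane list were at or over 1 TPM in every library, and their sum was 58180, 58030 and 43120 TPM. Slc24a5, a cation exchanger whose loss lightens pigment, had 6665, 6175 and 5284 TPM. Cd63, a tetraspanin that helps PMEL sort into melanosomes, had 4004, 4203 and 4721. Gpnmb, a close relative of PMEL, had 3999 and 4029 TPM in libraries 1 and 2 and 2580 in library 3. The lower sum of library 3 followed Pmel, which made up 42.5% of the mean sum, while Cd63 was highest there.

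Below these came transporters and channels of the melanosome. Slc45a2, which helps set melanosome pH, had 1569, 1451 and 1129 TPM, and Oca2, a chloride channel of the melanosome, had 579, 395 and 537. Gpr143, the ocular albinism receptor of the melanosome membrane, was nearly level at 366, 369 and 404 TPM. Trpm1, a cation channel gene under MITF, had 150, 128 and 118. The 10 melanocyte markers looked for were Pmel, Dct, Tyrp1, Tyr, Mlana, Slc45a2 and Gpr143 with Mitf, Sox10 and Kit, and the lowest value among them was 59.4 TPM, for Mitf in library 2.

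Genes for the making and transport of melanosomes ran at far lower levels than the cargo. Their list had 33 measured genes, 32 of them at or over 1 TPM in every library, with a median of 40.1 TPM and sums of 3969, 3840 and 4020 TPM. Rab7, a late endosome GTPase, had 704, 645 and 706 TPM. Rab32 and Rab38, the pair of GTPases that deliver enzymes to melanosomes, had 547, 507 and 562 TPM, and 488, 576 and 428 TPM. Bloc1s1 and Dtnbp1, both subunits of the BLOC-1 sorting complex, had 391, 449 and 355 TPM and 182, 241 and 339 TPM. Ap1s1, a small subunit of the AP-1 adaptor, had 246, 242 and 276.

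**Figure D2:**
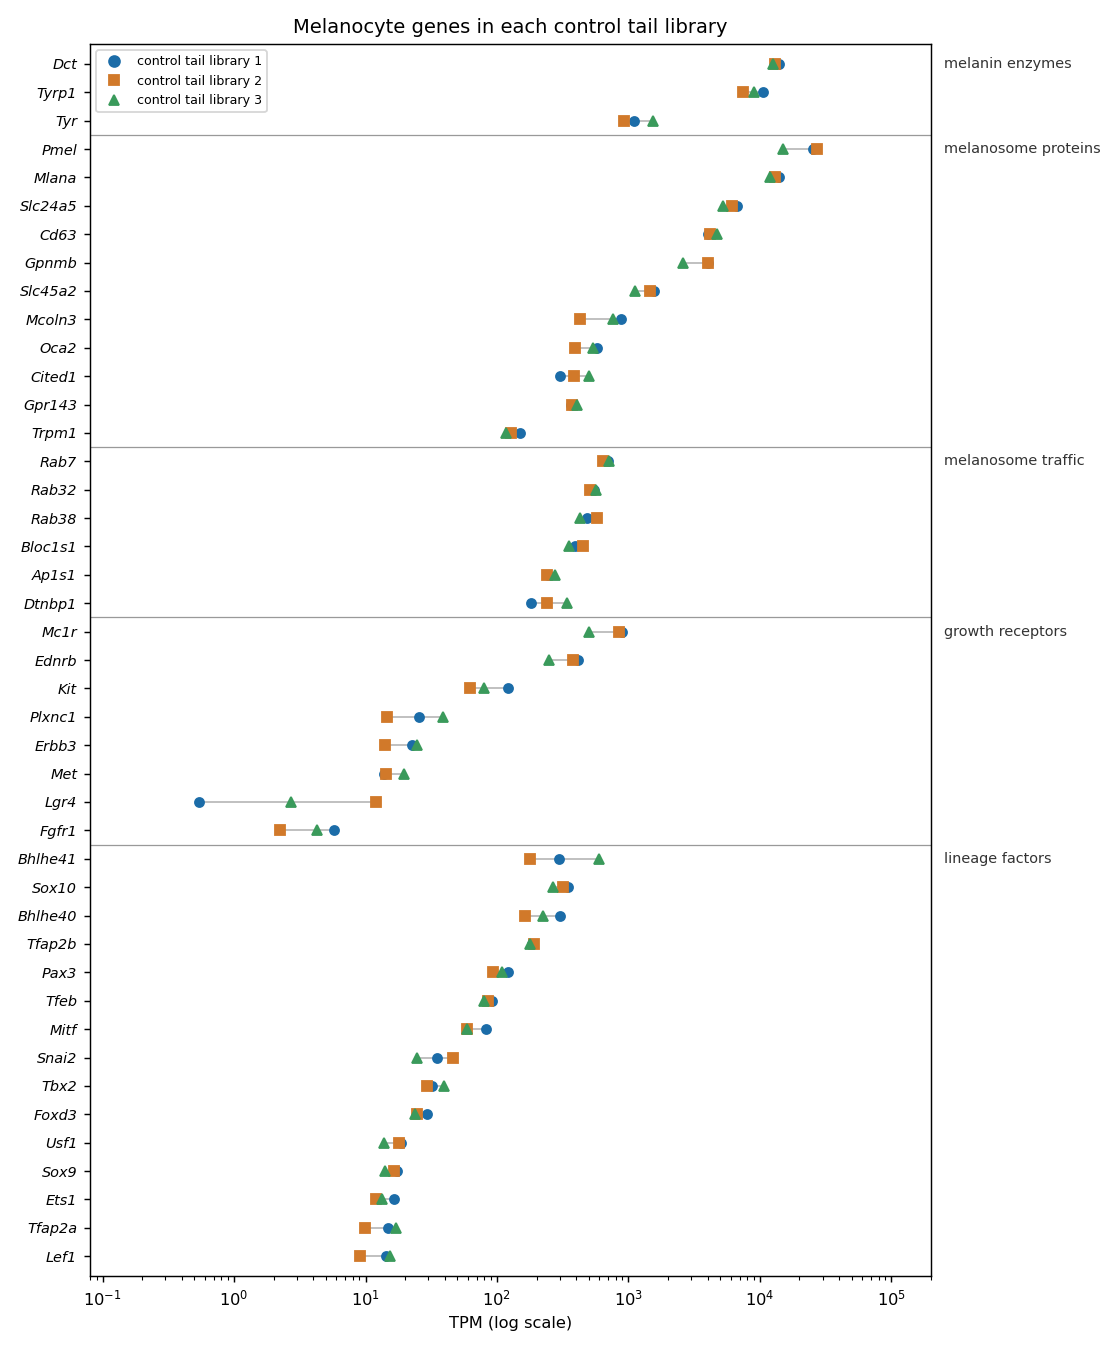
TPM (horizontal axis, log scale) of melanocyte genes in control tail library 1 (circles), library 2 (squares) and library 3 (triangles), grouped by role with a grey line from the lowest to the highest library. Dct and Mlana stay within a narrow range from 11940 to 14090 TPM, Pmel is lowest in library 3, and the highest lineage factor value is Bhlhe41 at 599 TPM in library 3.

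Several organelle and housekeeping groups had summed levels near those of the pigment genes. Lysosome and proton pump genes summed to 21030, 21660 and 21830 TPM, with all 32 measured members at or over 10 TPM in every library. Its highest member, Cd63, held 20.0% of the sum and is counted in the melanosome list as well. Next, the cathepsin Ctsd had 3472, 3550 and 3148 TPM, and Atp6v1g1 and Atp6v0c, subunits of the proton pump, had means of 2441 ± 280 and 1511 ± 90.4 TPM (SD, n = 3). Antioxidant and metal-binding genes summed to 44160, 43530 and 48290 TPM, of which Ftl1 was 47.6%. Gstp1, a glutathione transferase, had 6010, 5336 and 5154 TPM, and Mt1, a metallothionein, 3403, 2974 and 2794.

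Mitochondrially encoded proteins and ribosomal proteins differed in the library where they were highest. The 13 mitochondrial genes summed to 72320, 65560 and 91520 TPM and were highest in library 3 in 10 of 13, against 40.6% of the 1639 genes with a mean of at least 100 TPM. Among them mt.Atp8 and mt.Atp6, subunits of ATP synthase, had the highest means, 17810 ± 2981 and 16460 ± 4005 TPM (SD, n = 3), but the annotated genes overlap, at chrM:7766-7969 and chrM:7927-8607, so their reads cannot be parted with certainty. The 80 ribosomal protein genes summed to 44020, 47430 and 36890 TPM and were highest in library 2 in 57 and lowest in library 3 in 63. Over the same 1639 genes, 32.4% were highest in library 2 and 36.7% were lowest in library 3.

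Among the G protein-coupled receptors, Mc1r had the highest mean. Mc1r, the receptor for melanocortin and the switch between black and yellow pigment, had 898, 845 and 498 TPM and ranked number 199 of the protein-coding genes. Ednrb, the endothelin receptor needed by migrating melanoblasts, had 413, 379 and 248 TPM. Kit, whose ligand is stem cell factor, had 121, 61.9 and 80.1. Library 3 was lowest for Mc1r and Ednrb, and library 2 for Kit.

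The remaining melanocyte growth receptors were low. Of 17 measured receptors on that list, 8 were at or over 1 TPM in every library and 6 at or over 10 TPM. Plxnc1, a semaphorin receptor that limits melanocyte adhesion, had 25.6, 14.5 and 39.2 TPM, Erbb3, a neuregulin receptor, 22.4, 13.96 and 24.5, and Met, the hepatocyte growth factor receptor, 13.9, 14.3 and 19.7. Receptors for FGF and IGF, singled out after their values were seen because these ligands are used to grow pigment cells, were low: Fgfr1 had 5.73, 2.24 and 4.31 TPM and Igf1r 0.996, 1.66 and 1.94. The list's median of 1.77 TPM lies below that of all protein-coding genes, 10.3.

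Over the whole receptor tyrosine kinase family, 30 of 58 listed genes were in the table, and 10 reached 1 TPM in all 3 libraries. The family summed to 263, 190 and 237 TPM, with Kit as 38.1% of the mean sum. After Kit came Ryk, a Wnt receptor without kinase activity, at 41.6, 46.3 and 56.2 TPM, then Erbb3 and Met. Ddr1, a collagen receptor, followed at 16.0, 8.89 and 21.3, and Ephb6, an ephrin receptor lacking kinase activity, at 15.2, 15.9 and 10.7. No receptor tyrosine kinase reached 100 TPM in every library.

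Spry1 and its relatives encode feedback inhibitors of these kinases. Spry1, the floxed gene, at chr3:37639947-37644598, had 25.3, 15.9 and 20.95 TPM, from 1915, 1298 and 1587 counts. Its mean of 20.7 ± 4.72 TPM (SD, n = 3) puts it at number 4686 of the protein-coding genes. Spry2 was higher, with 78.9, 35.7 and 169 TPM, with the largest SD of the group, 68.2 TPM, since library 3 stood far above library 2. Spred1 had 27.8, 14.9 and 23.7 TPM, while Spry4, Spred2 and Spred3 had means of 1.72 ± 1.001, 1.37 ± 0.620 and 0.638 ± 0.556 TPM (SD, n = 3). Of the 6 measured members, 4 of the 5 with a mean of at least 1 TPM were lowest in library 2. Over all 11257 protein-coding genes at that level, 44.7% were lowest in library 2.

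G protein-coupled receptors taken by symbol numbered 77, of which 39 were at or over 1 TPM in every library. After Mc1r the highest were Gpr137b, a lysosomal membrane protein, at 448, 366 and 472 TPM, then Gpr143 and Ednrb, then Gpr180 at 226, 197 and 263 and Gpr108 at 111, 116 and 109. Lpar1, Lpar4 and Gprc5c had no count in the 3 libraries. Cytokine, TNF and interferon receptors were fewer and lower, with 27 of 50 at or over 1 TPM in every library and none at 100. Il10rb, a shared chain of IL-10 family and type III interferon receptors, had 89.2, 90.5 and 101 TPM, Il11ra1 79.8, 65.2 and 84.6, Tnfrsf19 66.3, 47.3 and 62.2, and Ifngr1 54.3, 39.0 and 55.8. Il2rg, the common gamma chain, had 25.8, 45.3 and 69.6 TPM, and Tnfrsf12a, the TWEAK receptor, 31.2, 30.7 and 66.3. Eda2r was at 0 counts.

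Most receptors of developmental signals were low, though single members were not. Of 13 receptors for TGF-beta and BMP ligands, 9 were at or over 1 TPM in every library, the sum was 113, 89.9 and 133 TPM, and the median member had 2.84 TPM. Acvr1c, which encodes the activin receptor ALK7, held 44.8% of the sum, with 49.8, 41.1 and 59.5 TPM. Eng, a TGF-beta coreceptor, had 15.8, 21.8 and 19.5, and the BMP receptor Bmpr1a 12.6, 7.10 and 7.83. Among 20 Notch, Wnt and semaphorin receptors, whose median was 1.46 TPM, the leading ones were Plxna1 at 40.8, 37.7 and 20.9 TPM, Plxnc1, and Notch2 at 16.6, 10.3 and 18.9. Notch signalling is known to keep melanocyte stem cells alive. Plxnb2, a semaphorin receptor, and Neo1, a receptor for netrins, had means of 6.08 ± 3.18 and 5.79 ± 1.96 TPM (SD, n = 3).

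Lineage transcription factors were present at moderate levels. Of 23 measured, 22 were at or over 1 TPM in every library, with a median of 15.9 TPM and sums of 1654, 1284 and 1725. Sox10, a neural crest factor that switches on Mitf, had 349, 319 and 268 TPM and ranked number 587. Pax3, another neural crest factor upstream of Mitf, had 121, 93.8 and 109. Mitf itself had 81.8, 59.4 and 59.7 TPM and ranked number 2271. Both Sox10 and Pax3 were above Mitf in every library.

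Bhlhe41 and Bhlhe40, repressors of the bHLH class that respond to MITF and to hypoxia, were numbers 1 and 3 of this list. Bhlhe41 had the largest SD of the list, 217 TPM, with 295, 178 and 599 TPM, and library 3 lay above the rest. Bhlhe40 had 303, 164 and 226. Tfap2b, of the AP-2 family that supports neural crest genes, was level at 185, 190 and 178 TPM. Its relative Tfap2a, shown after its values were seen because it is the better known pigment regulator, had 14.7, 9.86 and 17.0. Tfeb, the MITF relative that drives lysosome genes, had 91.2, 85.2 and 79.6 TPM. Library 2 was lowest in 15 of the 22 factors with a mean of at least 1 TPM, against 44.7% of all genes at that level.

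Across 400 transcription factors taken from families by symbol, 273 were at or over 1 TPM in every library and 22 at or over 100. The sums were 17300, 18400 and 17500 TPM and the median was 4.84 TPM, below the 10.3 of all protein-coding genes. Immediate early factors led. Fos had 2985, 4387 and 2621 TPM, Jund 851, 922 and 1464, and Jun 773, 836 and 926. The AP-1 family held 5801 TPM of the mean sum in 11 genes. Bmyc, a MYC relative without the DNA-binding region, was second at 2412, 2242 and 2655 TPM. Id2 and Id3, which block bHLH factors, had 1016, 1204 and 586 TPM and 906, 1195 and 642 TPM, lowest in library 3. Sp6 and Elf3, both factors of differentiating epithelium, had no count in any of the 3 libraries.

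The secreted inhibitor, protease and matrix genes had a high sum through few members. The sum was 29090, 31390 and 30890 TPM, or 3.05% of the messenger total, while the median member had 4.196 TPM and 51 of 85 measured were at or over 1 TPM in every library. The galectins are lectins that also act inside cells: Lgals3 had 6780, 7552 and 9804 TPM and Lgals1 6018, 7342 and 6075. Ptgds, the enzyme and lipid carrier that makes prostaglandin D2, had 5726, 5086 and 5176 TPM and differed little between libraries. Ecm1, a matrix protein, had 1602, 1812 and 2565, Apoe, the lipid carrier found in melanosomes, 1721, 1925 and 1287, and Sparc, a collagen-binding protein, 1726, 1535 and 1061. Wif1, an inhibitor of Wnt ligands, was at 0 counts.

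Growth factors and cytokines formed a smaller pool of 4300, 4661 and 3681 TPM. Only 36 of 83 measured were at or over 1 TPM in every library, and the median of the list was 2.03 TPM. Mif, a cytokine stored in the cytosol, made up 61.1% of the sum, with 2715, 3029 and 1979 TPM. Grn, the lysosomal growth factor progranulin, had 636, 608 and 537, and the chemokine Cxcl14 had 331, 357 and 460. Vegfb and Sema3b followed at 121, 133 and 137 TPM and at 113, 106 and 126 TPM. Cxcl9 and Ccl20, chemokines that attract lymphocytes, were at 0 counts in all 3.

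Other secreted products ranked among the 30 most abundant genes. Prl2c5, a member of the prolactin family of proliferins, had 6903, 6677 and 5253 TPM and ranked number 16. It has near-identical relatives in the mouse genome, so its reads may be split among them, and 2 of these, singled out after their values were seen, were much lower: Prl2c2 at 105, 39.4 and 72.9 TPM and Prl2c3 at 23.3, 6.62 and 17.7. Npy, the neuropeptide Y precursor, had 4418, 3126 and 2091 TPM. Wfdc17, a secreted protease inhibitor chosen after its values were seen and ranked number 40, outside these 30, had 1089, 4643 and 1414 TPM and stood out in library 2.

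**Figure D3:**
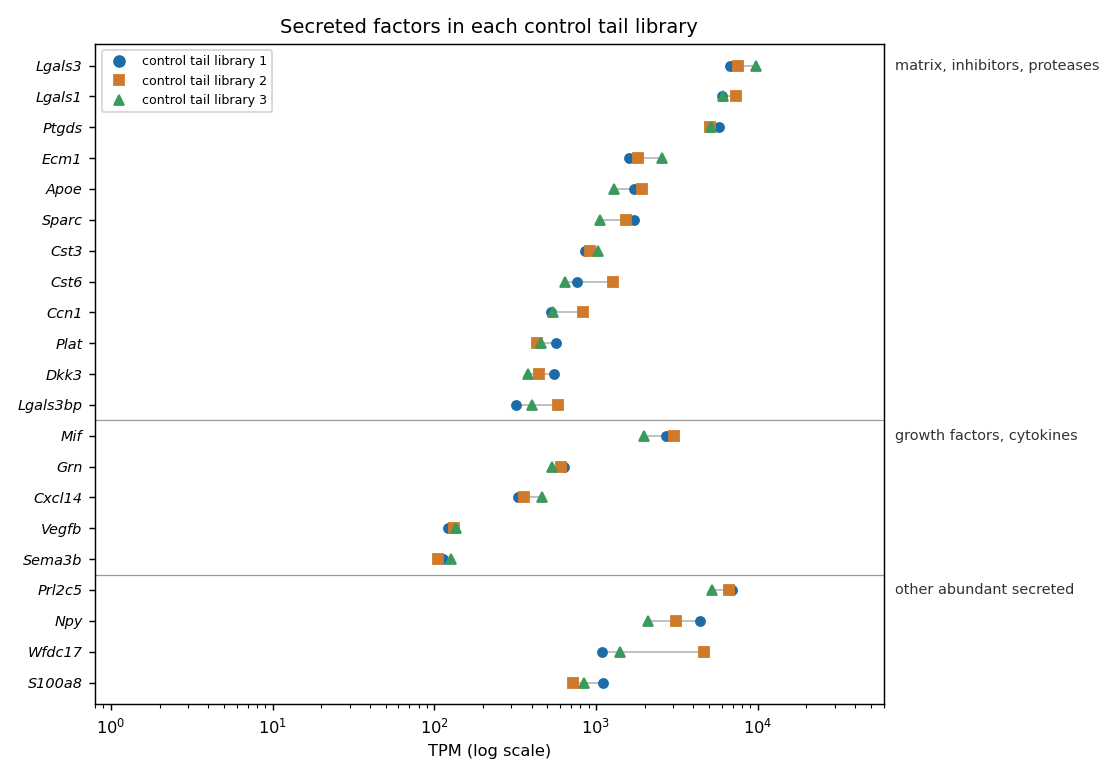
TPM (horizontal axis, log scale) of secreted factors in control tail library 1 (circles), library 2 (squares) and library 3 (triangles), with a grey line from the lowest to the highest library. Galectins, Ptgds and Prl2c5 lie between 5086 and 9804 TPM in all 3 libraries, growth factors below Cxcl14 are led by Vegfb, which reached 137 TPM in library 3, and Wfdc17 is far higher in library 2.

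Genes of cell contact included both cadherins that bind melanocytes to keratinocytes. Of 24 measured adhesion genes, 21 were at or over 1 TPM in every library, and the sums were nearly equal, at 2819, 2744 and 2822 TPM. The tetraspanin genes Cd9, Cd81 and Cd151 were among the highest, with means of 1259 ± 159, 597 ± 45.2 and 130 ± 56.6 TPM (SD, n = 3). Ctnnb1, the beta-catenin gene, had 296, 194 and 218 TPM, Cdh3, P-cadherin, 188, 74.7 and 143, and Itgb1, integrin beta 1, 139, 102 and 154. Cdh1, E-cadherin, had 83.6, 47.6 and 58.9 TPM. Both cadherins are also made by keratinocytes. Dsg2, a desmosomal cadherin, was at 0 counts.

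Neural crest and melanocyte stem genes were led by genes that mature melanocytes also use. Of 16 measured, 14 were at or over 1 TPM in every library, and Dct alone made up 92.4% of the summed TPM. S100b, a calcium-binding protein of neural crest cells, had 349, 411 and 331 TPM, and Hes1, a target of Notch, 98.9, 154 and 112. HOX genes, which mark position along the body, were scarce: 12 of 39 were in the table, 6 reached 1 TPM in every library, and their sums were 24.7, 27.4 and 18.2 TPM. Hoxb13, of the most caudal paralogue group, had 3.97, 4.23 and 3.43 TPM, Hoxc13 of the same group 0, 0.0868 and 1.42, and Hoxd9 had 3.87, 5.17 and 2.16. Hoxa7 had the highest mean, 4.81 ± 3.47 TPM (SD, n = 3), because of library 1 alone, which had 8.82 against 2.77 and 2.84. Hoxb7 had 7.36 TPM in library 2 and no count in the others.

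Immediate early genes, which also respond to tissue dissociation, were all 31 in the table and 28 of them at or over 1 TPM in every library, with a median of 106 TPM. Their sums were 7779, 10080 and 8947 TPM. Beyond Fos, Jund and Jun, the highest were Ier2 at 472, 569 and 744 TPM, Junb at 448, 448 and 623, and Klf6 at 351, 496 and 497. Interferon response genes were low, with a median of 4.795 TPM and 16 of 25 at or over 1 TPM in every library. Ifi27 had 161, 142 and 105 TPM, Ifi35 113, 139 and 152, and Ifitm3 128, 70.6 and 47.8.

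Class I antigen presentation was led by B2m, with 4272, 4431 and 2171 TPM, lowest in library 3, and by H2.D1, a class I heavy chain, with 898, 938 and 743. Pdia3, Calr and Canx, which fold class I molecules in the endoplasmic reticulum, had means of 483 ± 43.1, 337 ± 2.29 and 124 ± 38.9 TPM (SD, n = 3). A second heavy chain, H2.K1, had 97.6, 83.6 and 91.0 TPM, and reads may be shared among class I genes. Cell cycle genes were all 36 present, 33 of them at or over 1 TPM in every library, with a median of 19.8 TPM. Pcna, the replication clamp, had 246, 240 and 235 TPM, and mitotic genes were lower and more variable: Ccnb2, a mitotic cyclin, had 185, 227 and 131, Cdc20 94.9, 118 and 55.2, and Plk1 47.7, 77.0 and 57.7. Of the 36 cell cycle genes, 17 were highest in library 2 and 16 lowest in library 3. Over all protein-coding genes with a mean of at least 1 TPM, the shares were 23.4% and 31.5%. Which cells supplied this RNA was not tested. The inhibitor Cdkn1a, or p21, had 373, 525 and 475 TPM, above Cdk2, Ccnd2, Ccnd1 and Cdk4, whose means were 240 ± 44.1, 205 ± 31.2, 183 ± 33.6 and 181 ± 18.2 TPM (SD, n = 3).

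Glycolytic genes were led by Aldoa, aldolase A, at 1789, 2100 and 1916 TPM, Eno1, enolase, at 1252, 1483 and 1680, and Ldha, lactate dehydrogenase A, at 1235, 1444 and 928. Pkm, pyruvate kinase, had 901, 907 and 891 TPM. Pgam1 and Ldhb had means of 614 ± 99.3 and 556 ± 46.6 TPM (SD, n = 3). Gapdh, a common reference gene singled out after its values were seen, had 33.3, 51.9 and 37.0 TPM and ranked number 3189. With the longest transcript as the length it had a mean of 39.4 TPM and ranked number 3336. How reads shared with near-identical copies were counted is not known, and whether this lowered the Gapdh value was not tested.

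Markers of other skin cells were chiefly those of keratinocytes. What share of the RNA keratinocytes supplied was not measured, and in library 2 their markers were more than a trace. Basal keratinocyte markers, all 18 of which were in the table, summed to 3876, 6464 and 2217 TPM, and the 25 measured markers of differentiated keratinocytes to 3872, 8123 and 2771. Krt14, the keratin of basal cells and the source of the Cre promoter in the other groups, had 1361, 1668 and 632 TPM, while its partner Krt5 had 147, 168 and 120. Ly6d, a surface protein of keratinocytes, had 887, 2191 and 651 TPM, Perp, a desmosome protein, 690, 1158 and 194, and Krt15 169, 518 and 214. No marker of either list was at 0 counts in all 3 libraries. Summed per library, the melanin enzymes exceeded the basal keratinocyte markers in each of the 3. The gap was smallest in library 2, at 21330 against 6464 TPM. In that library the differentiated list had 8123 TPM and the hair follicle and gland list, given below, 4475. Keratin genes outside these lists, such as Krt36 with 3232 TPM in library 2, are not in these sums, and the lists were not added together.

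Differentiation markers varied together between the libraries. Krtdap, a secreted product of suprabasal keratinocytes, had 1647, 3821 and 1487 TPM, Krt10, the suprabasal keratin, 349, 859 and 111, and Krt2 327, 742 and 45.1. Cst6, a protease inhibitor of the cornified layer counted also among the secreted genes, had 768, 1278 and 640. Of the 20 differentiation markers with a mean of at least 1 TPM, 17 were highest in library 2 and 17 lowest in library 3. Over all protein-coding genes at that level, 23.4% were highest in library 2 and 31.5% lowest in library 3. What part these markers have in the other genes that were high in library 2, among them Fos, Wfdc17 and the ribosomal protein genes, was not tested.

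Hair follicle and gland markers, 24 of them measured, summed to 3320, 4475 and 1725 TPM. Krt17 was highest, with 1768, 2468 and 761, and Krt6a had 428, 512 and 185. Mgst1, a glutathione transferase of sebaceous glands and many other cells, differed little, at 668, 659 and 626. Some keratins of the hair shaft and its sheath had nearly all their TPM in 1 library. Krt31, a hair cortex keratin, had 0, 312 and 5.12 TPM. Krt33a had 1.57, 196 and 1.38 TPM. Krt71, an inner root sheath keratin named after its values were seen, had 127, 0 and 1.33. The whole keratin family, 37 genes, summed to 5909, 12240 and 2556 TPM, and 29 of the 33 keratins with a mean of at least 1 TPM had a coefficient of variation over 50%, against 24.6% of all protein-coding genes at that level.

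Markers of immune cells were low, S100a8 apart. Of 25 Langerhans cell and myeloid markers 16 were in the table, and these summed to 54.6, 93.0 and 60.01 TPM. Most of that came from Cd68, a lysosomal protein, at 14.5, 29.6 and 30.01 TPM and from Epcam, which epithelial cells also make, at 14.2, 42.9 and 15.3. Lyz2 and Laptm5 had 13.5, 2.98 and 4.26 TPM and 7.45, 8.99 and 2.65 TPM. The class II gene H2.Eb1 had 0, 3.90 and 0 TPM and Cd74, the invariant chain, 0.115, 3.44 and 0.0686, whereas H2.Ab1 had 1.53, 0 and 0; Cd74 and H2.Ab1 are named after their values were seen. Cd207, the defining Langerhans cell gene, was not among the genes of the table.

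T cell and other lymphoid markers summed to 16.5, 20.9 and 4.42 TPM over 8 of 24 genes, of which Trbc2, a T cell receptor constant gene, made up 76.7%, with 13.5, 18.2 and 0.333 TPM. Trbc1 was at 0 counts. In the mast cell and granulocyte list only S100a8 and S100a9 were in the table. S100a8, a calcium-binding protein of neutrophils and of stressed keratinocytes, had 1113, 720 and 849 TPM, whereas its usual partner S100a9 had 0, 0 and 0.294.

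Fibroblast markers were low. The 9 measured fibroblast markers of 18 summed to 8.21, 13.2 and 12.9 TPM, with Dcn at 1.65, 7.66 and 3.29, Fbn1 at 2.67, 1.39 and 4.18 and Col1a2 at 2.04, 2.56 and 2.51. Endothelial and pericyte markers summed to 42.0, 41.2 and 39.4 TPM from 5 of 16 genes, chiefly Eng and Cspg4, at means of 19.1 ± 3.02 and 13.9 ± 2.25 TPM (SD, n = 3), and Pecam1 and Cdh5, which define endothelium, were not in the table. Merkel cell markers summed to 0.118, 4.46 and 6.52 TPM from 4 of 12, a mean of 3.70 that became 2.29 without library 3. Schwann cell and glial markers reached 871, 917 and 927 TPM from 11 of 16, but Pmp22 with 375, 409 and 411 TPM and S100b held most of it, and both are also used by the melanocyte lineage. Mbp, a defining myelin gene named after its values were seen, had 0.0545, 0.0715 and 11.02 TPM.

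Red cell RNA differed widely between libraries. The list for muscle, fat and blood summed to 625, 50.7 and 103 TPM, a mean of 260 that became 77.0 without library 1. The haemoglobin genes Hba.a2, Hba.a1 and Hbb.bs had 230, 11.3 and 27.4 TPM, 207, 11.9 and 24.1 TPM, and 127, 8.30 and 14.2 TPM, and reads of the near-identical alpha genes may be split between them. Alas2, the haem synthesis enzyme of red cells, was at 0 counts. Mylpf, a muscle myosin light chain, had 18.2, 13.9 and 24.2 TPM, and Acta1, skeletal actin, 0.1001, 0.186 and 13.3.

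**Figure D4:**
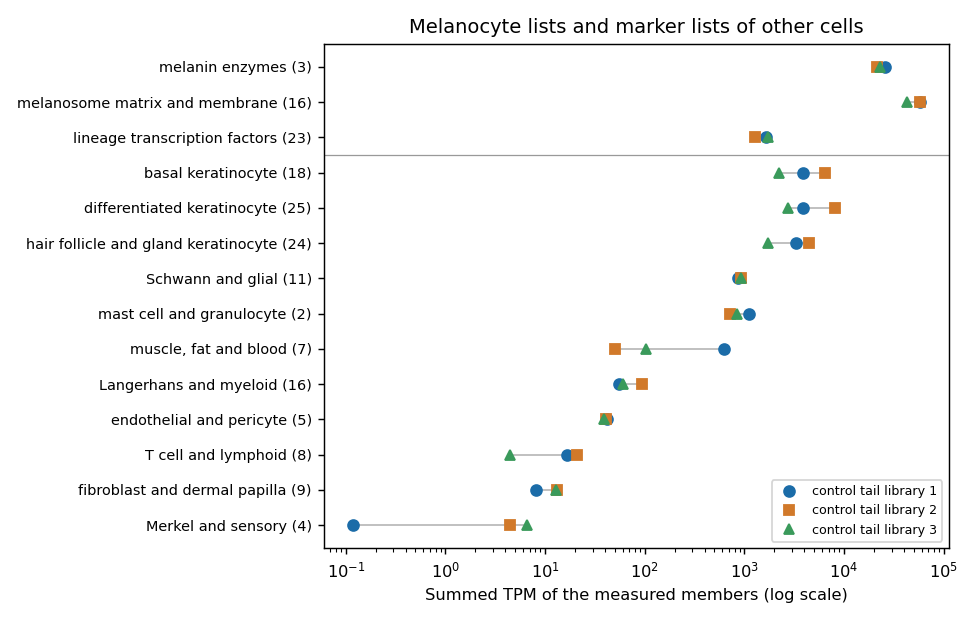
Summed TPM (horizontal axis, log scale) of the measured members of 3 melanocyte lists (above the line) and 11 marker lists of other cells (below it) in control tail library 1 (circles), library 2 (squares) and library 3 (triangles), with the number of measured members in brackets. The 3 keratinocyte lists are highest in library 2 and lowest in library 3, and the muscle, fat and blood list is highest in library 1.

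The spread between the 3 libraries depended on the level of a gene. The median coefficient of variation, the SD as a percent of the mean over the 3 libraries, was 46.3% for the 4777 genes between 1 and 10 TPM, 24.7% for the 4841 between 10 and 100, 14.2% for the 1504 between 100 and 1000 and 16.4% for the 135 above. Between 2 libraries, a more than 2-fold difference was seen in 555 of 6480 genes with a mean of at least 10 TPM for libraries 1 and 2, in 597 for 1 and 3 and in 853 for 2 and 3. Single-library signals were rare: 16 of the 6480 genes had over 90% of their TPM in 1 library, 6 of them in library 1, 7 in library 2 and 3 in library 3.

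Among genes with a mean of at least 100 TPM the steadiest were general cell genes. Nsmce1, a subunit of the SMC5/6 complex, had 111.3, 111.5 and 111.2 TPM, a coefficient of variation of 0.127%. Calr, a chaperone of the endoplasmic reticulum, Park7, which protects against oxidative damage, Rtca, an RNA cyclase, Pkm, Saraf, a regulator of calcium entry, and Yaf2 were among those that followed, with 0.679% to 1.10%. The SD of 3 libraries is itself imprecise, and these are among the lowest of 1639.

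The most variable genes at this level included 4 keratinocyte and hair genes, all highest in library 2. Krt31, given above, was one. Krt36 had 667, 3232 and 309 TPM, Krt84, a nail and hair keratin, 246, 891 and 44.1, and Mt4, a metallothionein of stratified epithelium, 290, 1174 and 112, in the same order of libraries as the sum of the differentiated keratinocyte markers. Scamp4, a membrane trafficking gene, had 38.2, 280 and 41.0 TPM. Others followed different libraries. Gm45717, a predicted gene, had 897 TPM in library 1 and no count in the other two, Apoa2, a plasma lipoprotein made by liver, had 641, 174 and 56.5, and the predicted gene Gm47283 had 85.9, 38.7 and 332. Against the median of 16.4% for genes of at least 1000 TPM, the coefficient of variation was lower for Dct at 5.95% and Mlana at 8.24%, and higher for Tyrp1 at 17.3%, Gpnmb at 23.4%, Tyr at 27.0% and Pmel at 29.4%.

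**Figure D5:**
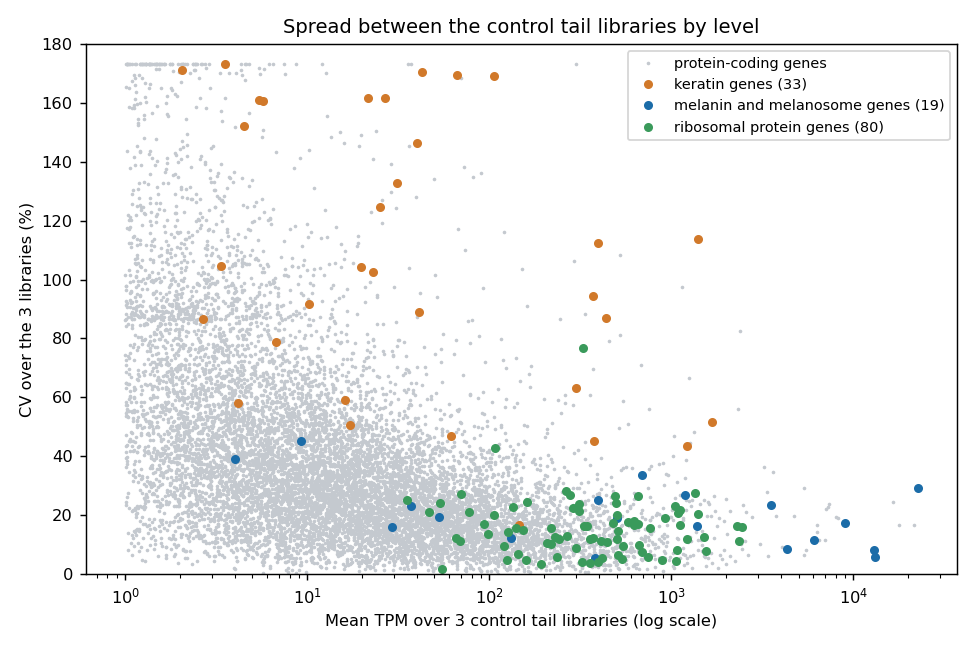
Coefficient of variation over the 3 control tail libraries (vertical axis, percent) against mean TPM (horizontal axis, log scale) for protein-coding genes at or over 1 TPM (grey), with 33 keratin genes, 19 melanin and melanosome genes and 80 ribosomal protein genes in colour. The spread narrows from a median of 46.3% at 1 to 10 TPM to 14.2% at 100 to 1000 TPM, and 29 of the 33 keratins lie over 50%.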

How the data were processed

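The deposited table holds 16299 genes by 9 libraries on a log2 scale. The submitters' processing notes name DESeq2 and GRCm38, without version or role. RNA came from Trizol extraction and was amplified with a SMART-Seq v4 kit, per the labels' protocols. For the aligner, counter, annotation and strand, nothing is given in the sources used here, so reads of overlapping, antisense or near-identical genes cannot be parted.

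From the values, the deposited log2 figures follow a variance-stabilising curve (7.98 at 0 counts), after which a shift between 7 libraries, all 3 controls among them, and 2 others was removed. In the controls this moved the values by a median of 0.22 log2, and by over 0.5 in 18.3% of genes. Undoing both gave whole counts within 0.004 for 16296 genes, and within 0.02 for Dct, Pmel and Tyrp1. The recovery was tested on simulated data (1500 of 1500 genes exact), with curve and library sets given to it. Every gene has at least 10 counts in 3 or more of the 9 libraries. A gene outside the table may therefore still have had counts, even many in fewer than 3 libraries. The gene set before this filter is not known.

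Symbols were matched to GENCODE vM21, with 197 through RefSeq synonyms and 197 unmatched. Dots in deposited names stand for hyphens (mt.Co1). TPM used the union of exons. The genes named were, by rule, the 30 highest by TPM, the 10 highest by deposited value, up to 6 per list and those at 0 counts, the 8 steadiest and 8 most variable from 100 TPM, Spry1 and the classic lineage genes. Exceptions are marked, and figures show further members. Some genes that the rule names are not reported here. Members and lists were chosen with earlier results of these data known. No group comparison or significance test was made. Alternatives were the longest transcript, other totals, the antilog of the deposited values, other minimum levels and leaving out each library. Python 3.11.15, numpy 2.4.6, pandas 2.3.3, scipy 1.17.1 and matplotlib 3.10.9 were used.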

Additional observations from a re-analysis of the deposited data

How the results depend on the processing

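No paired analysis was possible because only 1 group was described and no result comes from a test between groups. The share of the 10 most abundant genes, 13.7%, was 12.8% with the longest transcript as length, 14.9% without mitochondrially encoded genes in the total, 13.1% from the antilog of the deposited values and 11.8% with the total taken over all annotated genes, an alternative added after seeing the data. Melanin enzymes, 23336 TPM, became 25552 with the longest transcript and 20013 over all annotated genes. Among the lists without a range in the next paragraph, 13 moved by at least their SD with the longest transcript and 15 did not. Glycolysis went from 7898 to 11375 TPM, melanocyte stem and neural crest genes from 14261 to 18241, and mitochondrially encoded proteins from 76465 to 58886. Secreted inhibitors, proteases and matrix, 30456 TPM, became 32983 without mitochondrial genes, 26495 from the antilog and 26104 over all annotated genes, and secreted growth factors, 4214 TPM, became 3616 over all annotated genes. From the antilog, basal keratinocyte markers went from 4186 to 8250 TPM, hair follicle and gland markers from 3173 to 5302, Langerhans and myeloid markers from 69.2 to 277, T cell markers from 13.9 to 134, Merkel cell markers from 3.70 to 33.8, fibroblast markers from 11.4 to 34.5, endothelial and pericyte markers from 40.9 to 77.6, HOX genes from 23.4 to 102, receptor tyrosine kinases from 230.0 to 414, interferon response genes from 624 to 1114, immediate early genes from 8934 to 13841, cytokine receptors from 662 to 1139 and TGF-beta and BMP receptors from 112 to 176. The median coefficient of variation, 21.5% from 10 TPM, was 14.3% from 100 TPM. The curve behind the deposited values puts a gene without counts at 7.98 on the log2 scale, so such a gene keeps a level in the antilog. From the antilog, 12776 genes reached 1 TPM in every library, against 9725 as reported. Antilog sums of lists with few counts therefore include this floor and do not measure low levels. How much of each antilog move the floor makes up was not tested, nor was the cause of the other moves.

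Leaving out each library in turn gave 10001 to 10260 detected genes, against 9725 in all 3, where fewer libraries have to pass by construction. The range was 13.5% to 14.0% for the top 10 share, 22169 to 24341 TPM for melanin enzymes, 50575 to 58108 for melanosome proteins, 1469 to 1690 for lineage factors, 1137 to 1428 for growth receptors, 3990 to 4480 for growth factors, 29990 to 31138 for secreted matrix, 3047 to 5170 for basal, 3321 to 5997 for differentiated and 2523 to 3897 for follicle keratinocyte markers, 57.3 to 76.5 for Langerhans markers and 16.1% to 19.6% for the median coefficient of variation. With 3 libraries an SD is itself imprecise, and the counting error of reads is small beside it except for genes with few counts. The RNA was amplified, and the error from sampling its molecules before amplification was not measured.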

Other observations

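Several abundant genes share sequence with pseudogenes that also received many counts. Ubb.ps had 83980, 94002 and 130709 counts in libraries 1, 2 and 3, Ftl2.ps 29372, 33010 and 41266, Cd63.ps 34524, 38785 and 41507 and Gstp.ps 30110, 28962 and 22932, so the levels of Ubb, Ftl1, Cd63 and Gstp1 are uncertain by reads split with these copies. Gm22133, annotated as a microRNA gene of 109 bases at chr7:45458089-45458197, lies inside Ftl1 on the same strand and had 114466, 134386 and 175736 counts.

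Apoa1, Apoa2 and the haemoglobin genes Hba.a1, Hba.a2, Hbb.bs and Hbb.bt were highest in library 1. Apoa1, a plasma lipoprotein like Apoa2, had 192, 64.0 and 20.2 TPM, in the same order as Apoa2. The ligands of 3 melanocyte receptors were also measured, chosen after their values were seen: Kitl, the KIT ligand, had 2.07, 2.75 and 11.9 TPM, Edn1, endothelin 1, 0.647, 0.450 and 2.51, and Pomc, the precursor of melanocortins, 11.3, 2.11 and 5.27.

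The sex of the mice is not given in the labels. Xist, expressed from the inactive X chromosome, had 5354, 1711 and 4908 counts, and the Y-linked Ddx3y had 0 in each library, whereas Eif2s3y, also Y-linked, had 154, 0 and 9. Among recovered counts, exactly 4 was frequent, with 94, 115 and 128 genes in libraries 1, 2 and 3, against 33, 33 and 31 genes with 3 counts and 43, 38 and 40 with 5.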
